A study of Mus musculus with 6 samples.

Results

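The 10 genes described here are the steroidogenic and hormone genes of the Leydig cell, the testosterone-making cell of the tissue between the seminiferous tubules: Star, Cyp11a1, Cyp17a1, Hsd3b1, Hsd3b6, Hsd17b3, Lhcgr, Insl3, Akr1cl and Nr5a1. They were chosen by name, and all 10 were found among the 54532 genes of each library. RNA was sequenced from pachytene cells, spermatocytes in the long stage of meiotic prophase, purified from mouse testis at about postnatal day 80 by STA-PUT, which separates cells by how fast they settle under gravity. There were 2 libraries of wild type (WT), 2 of MAPS knockout mice (MAPS-/-, KO) and 2 labelled MAPS EE-KO (MAPSEE;MAPS-/-, given as MAPS overexpression in the KO background, here EE_KO). Both KO and EE_KO thus carry the knockout. The labels name 3 mice of identical genotype per group and 2 independent experiments, but not the strain, what drives MAPS in EE_KO, what EE stands for, or whether a library pools mice. The p-values here take in the spread between 2 libraries a group and nothing beyond it, and that spread may be technical. Levels are FPKM (fragments per kilobase of gene, scaled by a size set for each library). That size was not the library's reads on genes, and what set it is not stated. Changes are differences of log2(FPKM + 1) between group means with their standard error (SE). A gene was called at a Benjamini-Hochberg adjusted p below 0.05 in a limma fit of all 6 libraries. Gene positions are those of GRCm38. The added 1 FPKM understates the change of genes near 0.

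In Leydig cells, luteinizing hormone binds its receptor LHCGR and raises cyclic AMP, which sets off the transport of cholesterol into mitochondria by STAR. The side-chain cleavage enzyme CYP11A1 turns cholesterol into pregnenolone, and HSD3B enzymes, CYP17A1 and HSD17B3 carry it on to testosterone. INSL3 is a peptide hormone of the same cells, and NR5A1 (SF-1) is the nuclear receptor that drives transcription of most steroidogenic genes. In the testis these genes are known from somatic cells, not as markers of pachytene cells.

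The MAPS gene 1700102P08Rik stood at 157 and 150.2 FPKM in WT, 7.97 and 10.1 in KO and 109 and 82.2 in EE_KO. The KO libraries stood apart in their cell markers: 8 pachytene genes summed to 5040.0 to 5556 FPKM in WT, 201 to 246 in KO and 4824 to 5191 in EE_KO, and none was at 0 in any library. All 8 of these were called lower in KO than in WT, with a median change of -4.99 on the log2 scale. They did not fall alike. Ldhc, a large part of the sum, stood at 2816 and 2500 FPKM in WT and 52.9 and 68.5 in KO. Sycp3 fell least (-0.60), from 74.0 and 72.8 FPKM in WT to 42.4 and 54.9 in KO. Of 15907 genes tested in KO against WT, 84.8% were called, 37.7% up and 47.1% down. A call was thus the usual outcome of that comparison. The larger of these directions depends on the scaling: 5994 genes were called up and 7494 down on FPKM, 7000 up and 6500 down on TPM, and 6820 up and 6516 down after quantile normalization. Each library held 14138292 to 16545183 reads on genes, as recovered from the FPKM. In bulk RNA, more cells of a type and more RNA per cell cannot be told apart.

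All 10 Leydig genes were higher in KO than in WT. Group means of FPKM rose between 11.5-fold (Hsd3b1) and 54.0-fold (Hsd3b6), and both KO libraries lay above both WT libraries for each gene. On the log2 scale the changes ran from 3.30 to 5.37 with a median of 4.25, where the median of all genes tested was -0.26. All 10 were called up, beside 37.7% of all genes, and both KO libraries lay above both WT libraries for 41.6% of all genes. Lhcgr passed the filter of a mean of 1 FPKM only through the KO libraries (mean 0.473 FPKM over WT and EE_KO) and so had to be higher there. The other 9 passed over WT and EE_KO alone.

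**Figure D1:**
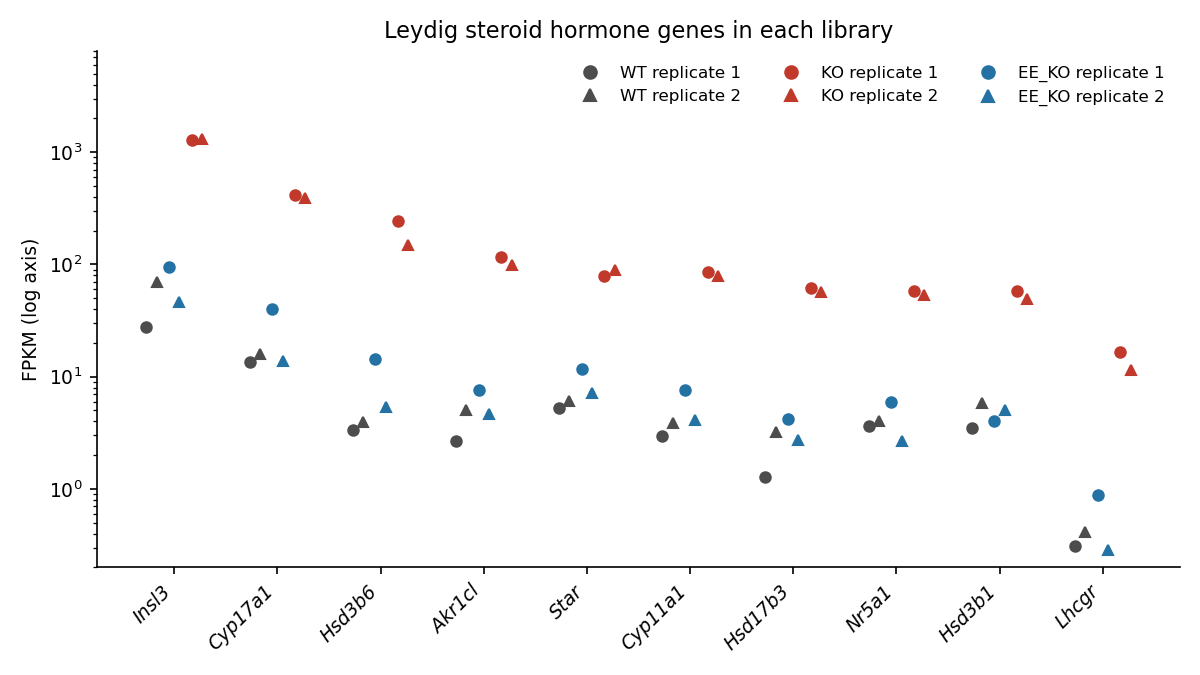
FPKM of the 10 Leydig genes in each of the 6 libraries on a log axis, ordered by the KO mean, with circles for replicate 1 and triangles for replicate 2. Both KO libraries lie above all WT and EE_KO libraries for every gene, from Lhcgr (16.6 and 11.5 FPKM in KO) to Insl3 (1277 and 1321).

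Lhcgr, the receptor of luteinizing hormone (ENSMUSG00000024107, chromosome 17, 88716481 to 88791990, minus strand), stood at 0.308 and 0.414 FPKM in WT, 16.6 and 11.5 in KO and 0.883 and 0.288 in EE_KO. It was the lowest of the 10 genes in every library, and the WT values rested on 33 and 48 reads. Their 95% exact Poisson intervals were 22.7 to 46.3 and 35.4 to 63.6 reads, which cover counting error only. KO lay above both other groups, by 3.45 (SE 0.25, adjusted p = 1.38e-05) against WT on the log2 scale, or 38.9-fold in mean FPKM. Lhcgr was tested only through the KO libraries and so had to be higher there. Its call and p-value thus add no support.

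Star (ENSMUSG00000031574, chromosome 8, 25806555 to 25815982, plus strand) encodes the protein that moves cholesterol to the inner mitochondrial membrane. Its level was 5.21 and 6.09 FPKM in WT, 78.8 and 89.0 in KO and 11.6 and 7.10 in EE_KO. The 3 groups did not overlap, with KO highest and EE_KO above WT. KO exceeded WT by 3.68 (SE 0.21, adjusted p = 5.73e-06), a 14.9-fold rise in mean FPKM. Cyp11a1 (ENSMUSG00000032323, chromosome 9, 58006411 to 58027023, plus strand), the side-chain cleavage enzyme, stood at 2.96 and 3.86 FPKM in WT, 84.8 and 78.3 in KO and 7.59 and 4.09 in EE_KO. Here too the groups did not overlap, in the same order, and the rise in KO was 4.23 (SE 0.25, adjusted p = 5.95e-06), 23.9-fold in mean FPKM. A long non-coding gene that overlaps Cyp11a1 on the same strand, Gm17322, reached 0.872 and 1.72 FPKM in KO and at most 0.0914 elsewhere.

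Hsd3b1 (ENSMUSG00000027871, chromosome 3, 98852194 to 98859794, minus strand) and Hsd3b6 (ENSMUSG00000027869, chromosome 3, 98805504 to 98814443, minus strand) are neighbouring copies of the 3β-hydroxysteroid dehydrogenase that converts pregnenolone to progesterone, Hsd3b6 being known as the form of adult mouse Leydig cells. Hsd3b1 stood at 3.47 and 5.84 FPKM in WT, 57.5 and 49.4 in KO and 4.05 and 5.01 in EE_KO, so that both EE_KO libraries lay within the range of WT. Hsd3b6 stood at 3.33 and 3.92 in WT, 243 and 149 in KO and 14.2 and 5.41 in EE_KO, with no overlap between the groups. The rise in KO was 3.30 (SE 0.22, adjusted p = 9.90e-06) for Hsd3b1, the smallest of the 10. For Hsd3b6 it was 5.37 (SE 0.41, adjusted p = 1.77e-05), the largest of the 10, with 95% intervals of 2.78 to 3.82 for Hsd3b1 and 4.40 to 6.34 for Hsd3b6. The ratio of Hsd3b6 to Hsd3b1 was 0.961 and 0.672 in WT, 4.22 and 3.02 in KO and 3.52 and 1.08 in EE_KO. Hsd3b1 was the higher copy in WT replicate 2, the copies were close in WT replicate 1 and EE_KO replicate 2, and Hsd3b6 led in both KO libraries and in EE_KO replicate 1. The pair shared 2.05% of the 50-base stretches of Hsd3b1 transcripts and 2.11% of those of Hsd3b6. Hsd3b6 shared 13.2% with Hsd3b2 and 12.2% with Hsd3b3, which stood at no more than 0.0156 FPKM in any library. How such reads were assigned is not stated.

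The 250 bases before the start sites of 3 of the genes are shown. They compare the start regions of the neighbouring pair Hsd3b1 and Hsd3b6, which rose least and most, and of Akr1cl. The rise of Akr1cl lay between theirs, as did those of all the other Leydig genes. They are RefSeq promoters of GRCm38.p6, at chr3:98859795-98860044, chr3:98814444-98814693 and chr1:65032760-65033009, all of minus-strand genes and read 5′ to 3′. Capitals mark GATA sites, searched on both strands as AGATAA or AGATAG or TGATAA or TGATAG, the letters bound by factors such as GATA4.
Hsd3b1: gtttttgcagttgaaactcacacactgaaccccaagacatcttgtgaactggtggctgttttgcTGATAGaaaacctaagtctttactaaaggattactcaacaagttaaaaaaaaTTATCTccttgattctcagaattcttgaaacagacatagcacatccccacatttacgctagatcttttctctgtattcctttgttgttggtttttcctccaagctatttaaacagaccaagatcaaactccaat
Hsd3b6: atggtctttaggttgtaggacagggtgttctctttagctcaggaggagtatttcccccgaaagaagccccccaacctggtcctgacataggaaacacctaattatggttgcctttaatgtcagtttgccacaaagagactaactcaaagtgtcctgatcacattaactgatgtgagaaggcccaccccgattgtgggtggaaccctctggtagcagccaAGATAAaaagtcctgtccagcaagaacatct
Akr1cl: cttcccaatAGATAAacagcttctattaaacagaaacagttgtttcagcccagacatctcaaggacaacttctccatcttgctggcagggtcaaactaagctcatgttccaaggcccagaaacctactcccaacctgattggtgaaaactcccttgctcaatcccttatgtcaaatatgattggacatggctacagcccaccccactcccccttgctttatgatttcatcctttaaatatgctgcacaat
Hsd3b1 held 2 such matches, at -186 on the gene's strand and at -134 on the other, Hsd3b6 held 1 at -31 and Akr1cl held 1 at -241, counted from the start site. Of the 7 Leydig genes matched by symbol in the promoter table, 4 held a GATA match in a window of this length, and 26.5% of all 32536 windows did. The first count is by gene and the share is by window: Cyp11a1 has 2 windows, and only the second held a match. The windows of Hsd17b3, Lhcgr and Insl3, not shown, held none. The NR5A1 half-site, searched as AAGGTCA and AAGGCCA on both strands, was in none of the windows of these genes and in 9.12% of all windows. TATAAA on the gene's strand was likewise in none and in 7.55% of all. These are matches of letters in short windows. Star, Cyp17a1 and Nr5a1 were not matched in that table.

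Cyp17a1 (ENSMUSG00000003555, chromosome 19, 46667165 to 46673172, minus strand), the 17α-hydroxylase and 17,20-lyase that makes androgens from progesterone, stood at 13.6 and 15.8 FPKM in WT, 416 and 386 in KO and 40.0 and 13.9 in EE_KO. EE_KO replicate 1 lay above both WT libraries and EE_KO replicate 2 between them. The rise in KO was 4.68 (SE 0.41, adjusted p = 3.59e-05), 27.3-fold in mean FPKM. Hsd17b3 (ENSMUSG00000033122, chromosome 13, 64058266 to 64089230, minus strand), which makes testosterone from androstenedione, was at 1.28 and 3.18 FPKM in WT, 61.0 and 56.9 in KO and 4.17 and 2.74 in EE_KO. Its WT libraries held 25 and 67 reads, with 95% exact Poisson intervals of 16.2 to 36.9 and 51.9 to 85.1, so the WT replicates differed by more than counting error. KO exceeded WT by 4.28 (SE 0.29, adjusted p = 1.17e-05), 26.4-fold in mean FPKM.

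Akr1cl (ENSMUSG00000025955, chromosome 1, 65012689 to 65032759, minus strand), a member of the aldo-keto reductase family, had 2.66 and 5.02 FPKM in WT, 116 and 98.2 in KO and 7.58 and 4.64 in EE_KO. EE_KO replicate 2 lay within the WT range and replicate 1 above it, and the rise in KO was 4.52 (SE 0.28, adjusted p = 8.01e-06), 27.8-fold in mean FPKM. The pseudogene Gm8550, inside Akr1cl on the other strand, holds 10.4% of the 50-base stretches of Akr1cl transcripts and read 1.53 and 0.617 FPKM in KO and 0 in WT and EE_KO.

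Insl3 (ENSMUSG00000079019, chromosome 8, 71689214 to 71690575, plus strand), the peptide hormone, was the highest of the 10 genes in every library. It stood at 27.9 and 69.9 FPKM in WT, 1277 and 1321 in KO and 94.7 and 45.8 in EE_KO. The WT replicates differed 2.51-fold and the EE_KO replicates 2.07-fold, and EE_KO overlapped WT. KO exceeded WT by 4.84 (SE 0.46, adjusted p = 5.29e-05), 26.6-fold in mean FPKM. Insl3 lies within Jak3 on the same strand, and 61.8% of the 50-base stretches of its transcripts also occur in Jak3 transcripts. Jak3, a kinase of cytokine receptors, stood at 3.31 and 2.69 FPKM in WT, 4.13 and 3.38 in KO and 1.70 and 1.45 in EE_KO and was not called in KO against WT (0.25, SE 0.16, adjusted p = 0.195).

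Nr5a1 (ENSMUSG00000026751, chromosome 2, 38692656 to 38714542, minus strand) encodes the nuclear receptor SF-1, which Sertoli cells make as well. It stood at 3.64 and 4.07 FPKM in WT, 57.9 and 53.1 in KO and 5.94 and 2.68 in EE_KO. The EE_KO replicates lay on either side of the WT pair, and KO exceeded WT by 3.54 (SE 0.28, adjusted p = 2.03e-05), 14.4-fold in mean FPKM. Nr5a1os, an antisense gene over its start, read 0.154 and 0.214 FPKM in WT and 1.98 and 2.67 in KO, and whether strand was used in counting is not stated.

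The order of the 10 levels changed between the groups. Overlap here compares the ranges of the 2 libraries of a group and not the order within a library. Some overlapping pairs kept 1 order in each library, as Star above Hsd3b1 in WT and Cyp17a1 above Hsd3b6 in EE_KO. Others, as Star and Cyp11a1 in KO, changed places. In WT, Insl3 (mean 48.9 FPKM) and Cyp17a1 (14.7) led and Lhcgr (0.361) was last. The 7 between them, Star, Hsd3b1, Nr5a1, Akr1cl, Hsd3b6, Cyp11a1 and Hsd17b3 in descending order, each overlapped the next in the list. In KO, Insl3 (1299 FPKM), Cyp17a1 (401), Hsd3b6 (196) and Akr1cl (107) were each above the next gene in both libraries. Star (83.9) overlapped Cyp11a1 (81.5), and Hsd17b3, Nr5a1 and Hsd3b1 (58.9, 55.5 and 53.5) each overlapped the next. In EE_KO, Insl3 (70.3 FPKM) stood above Cyp17a1 (26.9) in both libraries, Lhcgr (0.585) was again last, and the genes from Cyp17a1 to Hsd17b3 overlapped their neighbours.

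Levels were also set against Star in the same library. Star had one of the smaller rises, so these ratios restate the fold changes above, library by library. Nr5a1 stood at 0.698 and 0.668 of Star in WT and at 0.735 and 0.596 in KO, and Hsd3b1 at 0.665 and 0.959 in WT and 0.730 and 0.555 in KO. For both, the WT and KO ratios overlapped. Hsd3b6 went from 0.639 and 0.644 of Star in WT to 3.08 and 1.68 in KO, and Cyp17a1 from 2.61 and 2.60 to 5.28 and 4.34. Insl3 made up 43.3% and 59.2% of the summed FPKM of the 10 genes in WT and 53.0% and 57.6% in KO, which overlap. These ratios are descriptions of 2 libraries a group and were not tested.

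**Figure D2:**
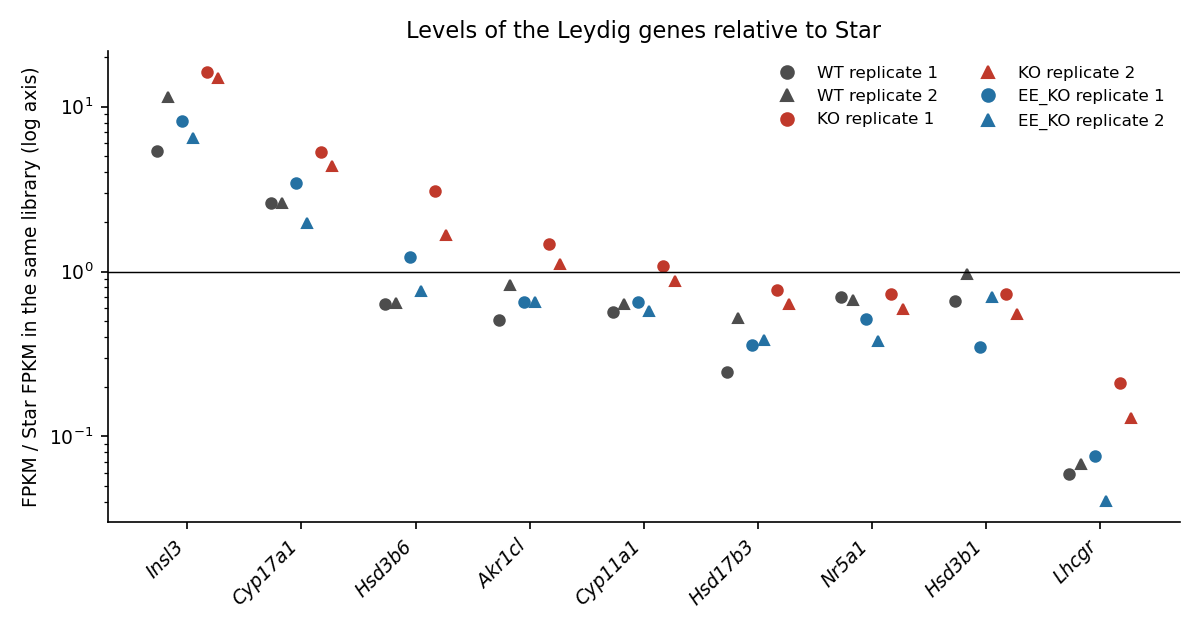
FPKM of 9 Leydig genes divided by the FPKM of Star in the same library, on a log axis, with the line at equal levels. Hsd3b6 lies below the line in WT (0.639 and 0.644) and above it in KO (3.08 and 1.68), while Nr5a1 keeps much the same place in both.

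In EE_KO against KO all 10 genes fell, by 3.07 (Star) to 4.28 (Insl3) on the log2 scale, and 37.4% of all genes were called down. Both EE_KO libraries lay below both KO libraries for all 10, and for 41.8% of all genes. EE_KO means stood at 4.17% (Lhcgr) to 11.1% (Star) of KO. The median change was -3.70, beside 0.24 for all genes tested. This comparison shares the KO libraries with KO against WT. Lhcgr, tested only through KO, had to fall in it. Insl3 fell by 4.28 (SE 0.46, adjusted p = 1.04e-04), Hsd3b6 by 4.27 (SE 0.41, adjusted p = 5.50e-05) and Star by 3.07 (SE 0.21, adjusted p = 1.32e-05).

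In EE_KO against WT none of the 10 genes was called by limma, 3 had an unadjusted p below 0.05, and limma's voom on reads recovered from the FPKM called none either. Of all genes tested, 0.0377% were called and 7.22% had an unadjusted p below 0.05. The estimates were above 0 for 9 of 10, with a median of 0.57 beside 0.00 for all genes. Hsd3b6 had the highest, 1.10 (SE 0.41, adjusted p = 0.609), with a 95% interval of 0.13 to 2.07. Star stood at 0.61 (SE 0.21, adjusted p = 0.578) with an interval of 0.10 to 1.11. Cyp11a1 stood at 0.59 (SE 0.25, adjusted p = 0.685), and these 3 were the genes whose EE_KO libraries both lay above WT, a pattern that 16.6% of all genes showed. Hsd3b1 stood at -0.01 with an interval of -0.52 to 0.51, and Insl3 at 0.57 with one of -0.54 to 1.67. With 2 libraries a group, the interval of Insl3 thus held differences past 1 on the log2 scale.

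The EE_KO libraries differed from each other. EE_KO replicate 1 was above both WT libraries for 9 of the 10 genes (all but Hsd3b1) and EE_KO replicate 2 for 3 (Star, Cyp11a1 and Hsd3b6), where 33.7% and 31.4% of all genes were. Replicate 1 exceeded replicate 2 by up to 3.07-fold (Lhcgr), and Hsd3b1 alone was lower in replicate 1, at 0.809 of replicate 2. Of 12 Sertoli markers, 12 were above both WT libraries in EE_KO replicate 1 and 2 in replicate 2. Their part in the result was not tested. Without EE_KO replicate 1 the median change of the 10 genes against WT was 0.17, and without EE_KO replicate 2 it was 0.90. It was 0.17 without WT replicate 1 and 0.75 without WT replicate 2. No member was called in any of these fits.

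**Figure D3:**
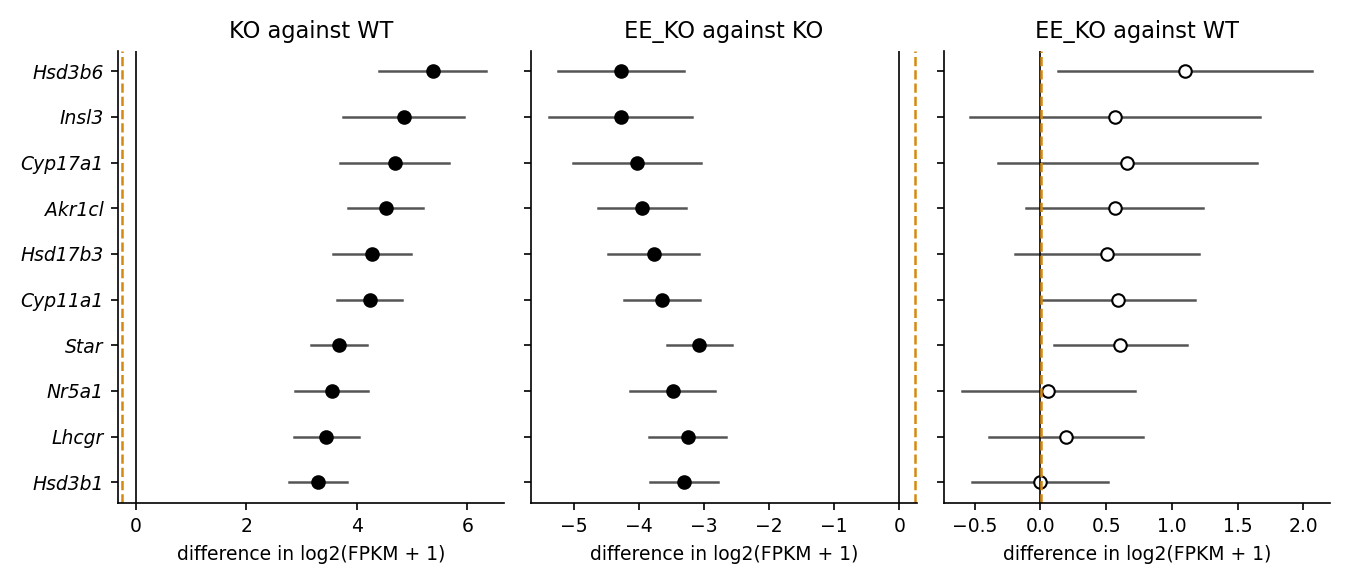
Difference in log2(FPKM + 1) for the 10 Leydig genes in the 3 comparisons, with 95% intervals from limma, filled points for called genes, and a dashed line at the median of all genes tested. The points lie at 3.30 or more in KO against WT, at -3.07 or less in EE_KO against KO, and are open in EE_KO against WT. The 3 panels have different horizontal scales.

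Summed over the 10 genes, FPKM stood at 64.3 and 118 in WT, 2408 and 2293 in KO and 191 and 91.7 in EE_KO. That was 0.0192% and 0.0367% of the whole library's FPKM in WT, 0.957% and 0.985% in KO, and 0.0604% and 0.0282% in EE_KO. The KO shares lay above all others. The two-sided exact permutation p for KO against WT was 0.333, the smallest that 2 libraries against 2 allow. Reads on the 10 genes were found in all libraries, the fewest being 1759, in WT replicate 1.

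Other Leydig markers moved with them. Of 7 (Prlr, Fabp3, Ptgds, Klk1b21, Klk1b24, Klk1b27 and Igf1), 6 passed the filter, Prlr only through KO, and all 6 were called up in KO against WT. Fabp3, a fatty acid binding protein, stood at 12.2 and 20.4 FPKM in WT and 416 and 324 in KO, and Prlr, the prolactin receptor, at 0.317 and 0.491 and 11.3 and 7.38. The near-identical Klk1b genes may share reads, and Igf1 was at 0.0877 to 0.165 FPKM throughout. This list summed to 38.3 to 55.8 FPKM in WT, 962 to 1212 in KO and 40.1 to 91.8 in EE_KO.

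Markers of other cells moved beside them, and their part in the result was not tested. All 12 Sertoli markers were called up in KO against WT (median 3.52), with sums of 304 to 318 FPKM in WT, 4267 to 4417 in KO and 266 to 496 in EE_KO. The Leydig sum over the Sertoli sum was 0.212 and 0.371 in WT, 0.545 and 0.537 in KO and 0.385 and 0.345 in EE_KO. Both KO values lay above all others, with a two-sided exact permutation p of 0.333 against WT, the smallest possible. This ratio rests largely on a few abundant genes. Insl3 was 43.3% to 59.2% of the Leydig sum. Clu (162 FPKM in each WT library) and Amhr2 (60.8 and 68.0) were most of the Sertoli sum in WT. Some markers of the remaining lists passed the filter of 1 FPKM only through the KO libraries, as Lhcgr did, and so had to be higher there: 2 spermatogonial (Zbtb16 and Sall4), 4 macrophage (Cd14, C1qa, C1qb and Lyz2) and 1 endothelial (Cdh5). With these included, spermatogonial markers were called up in 6 of 7 (1 not tested), beside 37.7% of all genes. Their sums were 18.9 to 20.9 FPKM in WT and 182 to 221 in KO. Uchl1 was most of these, at 11.6 and 11.9 FPKM in WT and 103 and 139 in KO. Gfra1, the marker not tested, went the other way, from 0.926 and 1.23 FPKM in WT to 0.518 and 0.347 in KO. Macrophage markers were called up in 6 of 9 (3 not tested), with 7.36 to 7.47 FPKM in WT and 39.0 to 49.7 in KO, and C1qa was at 0 in both WT libraries. Of those not tested, Csf1r and C1qc were higher in both KO libraries than in WT. Adgre1 was not, at 0.375 and 0.571 FPKM in WT, 0.464 and 0.284 in KO and 0.717 and 0.660 in EE_KO. Endothelial and blood markers were called up in 2 of 8 (6 not tested), with 6.60 to 7.16 FPKM in WT and 15.9 to 17.0 in KO, and the globin genes Hba-a1 and Hbb-bs were at 0 to 0.525 FPKM. Of 6 peritubular markers, Acta2 was called up, Actg2 was called down and 4 were not tested, with 28.5 to 41.9 FPKM in WT and 16.0 to 16.7 in KO. All 6 spermatid markers were called down, from 1360.2 to 2930.0 FPKM in WT to 9.30 to 9.66 in KO.

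**Figure D4:**
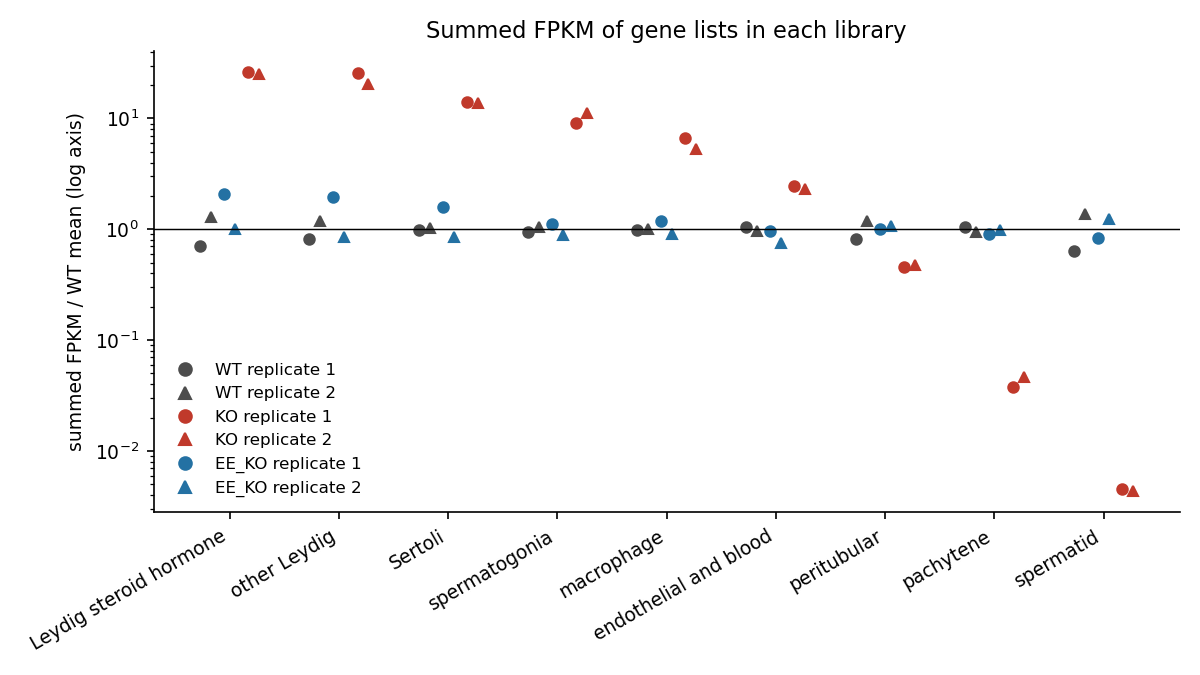
Summed FPKM of each gene list in each library divided by the mean of the 2 WT libraries, on a log axis, with the line at the WT mean. In KO the Leydig sums are 25.8 times and the Sertoli sums 14.0 times those of WT, and EE_KO replicate 1 lies above the line for both. The peritubular sum in WT is mostly that of Actg2, which was called down in KO, while Acta2 was called up.

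Of 69 other genes of the steroid pathway, in 5 lists, 48 were tested. In KO against WT 41 were called up and 3 down, with a median of 2.04, where 37.7% of all genes were called up and 47.1% down. Of those called up, 13 passed the filter only through the KO libraries and so had to be higher there: 4 of cholesterol supply, 1 of electron transfer, 2 of the other enzymes, 5 of the regulators and 1, Gnas, of LH signalling. In EE_KO against KO 42 were called down and 3 up, beside 37.4% of all genes called down. In EE_KO against WT limma called none, none had an unadjusted p below 0.05, and voom called none. Most of these genes are known from many cell types.

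Cholesterol supply rose in 13 of 14. Tspo, an outer mitochondrial membrane protein long studied in steroid-making cells, went from 1.40 ± 0.154 FPKM (mean ± SD, n = 2) to 32.7 ± 0.281, a change of 3.81 (SE 0.23, adjusted p = 6.34e-06). Scarb1, the receptor that takes up cholesterol from HDL, went from 7.43 ± 0.441 to 33.9 ± 2.64 (2.05), and Npc2, of lysosomal cholesterol export, from 7.96 ± 0.284 to 27.5 ± 1.24 (1.67). Lipe, the hormone-sensitive lipase, moved against its list, from 13.9 ± 4.51 to 2.17 ± 0.0582 FPKM (-2.20, SE 0.21, adjusted p = 5.30e-05), and is known to have a form of male germ cells.

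All 6 genes of the electron transfer list rose, of which H6pd passed the filter only through the KO libraries. The 3 with the smallest p were Por, which serves CYP17A1 and rose by 2.30, Fdxr of the mitochondrial chain to CYP11A1, by 2.51, and Cyb5b, a cytochrome b5, by 1.36. Fdx1, the ferredoxin of CYP11A1, was at 11.6 and 12.2 FPKM in WT and 29.9 and 27.9 in KO, above Cyp11a1 in WT and below it in KO. Of 23 other steroid enzymes 9 were tested, 7 rose and 1 fell. Sult1e1, which sulfates estrogens, rose by 3.79 (SE 0.17, adjusted p = 1.98e-06), Hsd17b12 by 3.13 and Hsd17b11 by 3.73. Cyp19a1, the aromatase that makes estrogens from androgens and is known in germ cells as well as Leydig cells, stood at 3.78 and 3.96 FPKM in WT, 0.0862 and 0.165 in KO and 3.23 and 3.86 in EE_KO, and fell by 2.11 (SE 0.15, adjusted p = 1.44e-05). Its direction was that of the pachytene markers and not that of the 10 Leydig genes.

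All 11 regulators and growth signals tested and reported here rose, of 17. Cebpb rose by 4.05 (SE 0.21, adjusted p = 3.75e-06), Gata4, a factor of Leydig and Sertoli cells, by 3.19 and the X-linked Nr0b1 (DAX1), a repressor of NR5A1, by 3.85. Of LH signalling genes 4 of 8 tested rose, a share near the 37.7% of all genes. They included Gnas (Gs alpha, 2.39), which stood at 0.504 and 0.602 FPKM in WT and passed the filter only through KO, and Prkar2b (a protein kinase A subunit, 1.87). Pde8a, which breaks down cyclic AMP, fell from 156 ± 17.6 to 13.2 ± 1.30 FPKM (-3.47, SE 0.13, adjusted p = 1.03e-06). The 3 genes not called were Prkaca (-0.28), Prkar2a (0.48) and Nr4a1 (0.22). Nr4a1 is a nuclear receptor induced by LH in Leydig cells, and it stood at 4.05 and 6.36 FPKM in WT and 6.44 and 5.82 in KO.

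**Figure D5:**
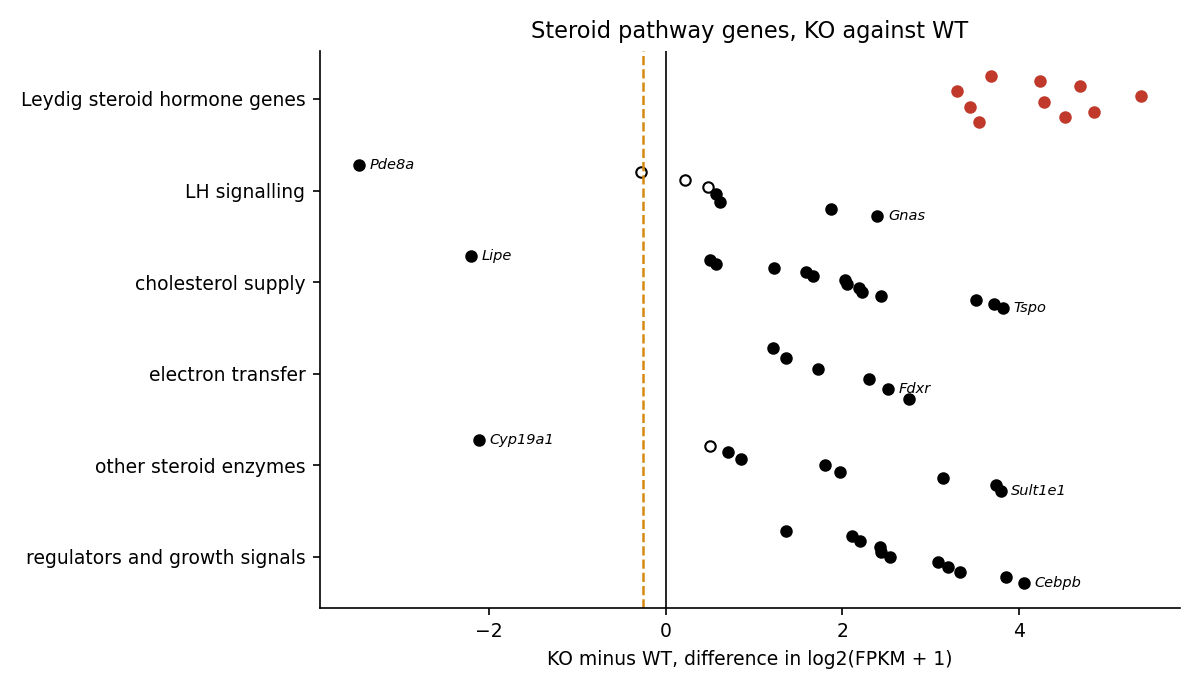
KO minus WT difference in log2(FPKM + 1) for the 10 Leydig genes (red) and the tested genes of 5 steroid pathway lists (filled where called), with a dashed line at the median of all genes tested. The Leydig genes lie between 3.30 and 5.37. Pde8a, Lipe and Cyp19a1 lie on the other side of 0, as does Prkaca (-0.28), which was not called.

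The 5 protein-coding genes whose centred log2 profile over the 6 libraries lay nearest to the mean profile of the 10, among 12165 compared, were Mgarp, Susd3, Pkdcc, Ier3 and Gstm1. Their root mean square distances were 0.0669 to 0.0975 on the log2 scale, with Pearson r of 0.9989 to 0.9994, over libraries of which the 2 of KO lie far from the rest. Gstm1, a glutathione transferase, was the most abundant, at 36.3 and 53.7 FPKM in WT, 1049 and 797 in KO and 91.3 and 51.1 in EE_KO. Mgarp, a mitochondrial protein, stood at 2.80 and 3.84 in WT, 79.0 and 73.2 in KO and 6.44 and 3.17 in EE_KO. Among the 10 themselves, Cyp11a1 lay nearest to their mean profile (0.0681) and Hsd3b6 farthest (0.532).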

How the data were processed

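Total RNA of purified cells (1.3 µg per library, SMARTer kit, per the labels' protocols) gave 6 libraries, 2 each of WT, KO and EE_KO. The deposited values are FPKM per the file headers, 1 file per library. The submitters' processing notes name GRCm38 and mm10, and the sources used here do not give the aligner, counter, annotation release or strand. GENCODE M21 (GRCm38) held 54495 of the 54532 genes and supplied symbols, positions and exon lengths. FPKM times exon length gave whole reads for 96.8 to 97.0% of values (tolerance 0.01), hence 14138292 to 16545183 reads on genes per library, with Cyp17a1 and Lhcgr whole at other lengths than in GENCODE. The library sizes implied by the FPKM were 13999600 and 15136000 in WT, 17966300 and 17373600 in KO and 14642900 and 14966600 in EE_KO. Reads on genes were 15926422 and 16213406, 15839834 and 14138292, and 15510128 and 16545183 in that order. WT and EE_KO thus held more reads on genes than the implied size, and KO fewer. What set the sizes is not stated in the sources used here, and voom used them too. Intervals on reads cover counting error only.

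From these, log2(FPKM + 1) of genes with a mean of at least 1 FPKM was fitted in limma 3.58.1 under R 4.3.3, with a trended prior, 1 model for all 6 libraries, no replicate block, and Benjamini-Hochberg adjustment over all genes tested. Recovery of known changes was tested on simulated data. The other settings tried were a pseudocount of 0.1 or 0.5, no filter, a mean of 5 FPKM, TPM (FPKM rescaled to 1 sum), quantile normalization, only the 2 groups compared, a replicate block, voom on recovered reads, each library left out and, chosen after seeing the data, short RNA genes left out. The 10 genes and the lists (5 of the steroid pathway, and other Leydig, Sertoli, peritubular, endothelial and blood, macrophage, spermatogonia, pachytene and spermatid markers) were chosen with earlier results of these data known. Named were all 10 genes, per pathway list the 3 called genes with the smallest p in KO against WT and those against their list, the 5 nearest profiles, and overlapping or paralogous genes. Other genes were named after their values were seen. 1 gene of the pathway lists is not reported here, and the counts leave it out. Figures were drawn with matplotlib 3.10.9 in Python 3.11.15, and exact tests used scipy 1.17.1.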

Additional observations from a re-analysis of the deposited data

How the results depend on the processing

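Over 16 alternatives, all 159 values of the 10 genes in KO against WT, and likewise all 159 in EE_KO against KO, kept their direction and their call (largest adjusted p by limma 0.0013 and 0.00216). In EE_KO against WT 0 of 159 were called, 9 changed sign, and adjusted p ran from 0.136 to 1. At a mean of 5 FPKM, where Lhcgr was not tested, the KO against WT calls numbered 7804, the EE_KO against KO calls 7762, and pathway genes 25 in each. At the filter of 1 FPKM Lhcgr was in only through KO, so its direction there was set beforehand. The median change of the 10 genes in KO against WT was 4.78 with a pseudocount of 0.1, 4.99 with TPM, 4.80 with quantile normalization and 4.80 with voom. In EE_KO against KO it was -4.08, -4.42, -4.22 and -4.10 in that order. TPM moved the median of all genes in KO against WT from -0.26 to 0.12, and quantile normalization moved it to 0.04. Relative to it the 10 genes stood at 4.51 in the main analysis, 4.87 with TPM and 4.76 with quantile normalization. Of all genes, 6 were called in EE_KO against WT, beside 0 without a filter, 2 at a mean of 5 FPKM, 1 with TPM and 0 with only the 2 groups compared. With 1 library left out that count ran from 0 to 14, the 14 without EE_KO replicate 1, and the median of the 10 genes from 0.17 to 0.90. The share of the 10 genes in all FPKM (KO mean 0.971%) was 1.07% over protein-coding genes. As a share of reads it was 0.441% in KO and 0.0142% in WT. The cause of these shifts was not tested. With 2 libraries a group, small differences between EE_KO and WT were beyond the reach of the test.

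With the replicate number as a block, no call of the 10 genes changed, and 13471 genes were called in KO against WT, 13322 in EE_KO against KO and 2 in EE_KO against WT. Same-numbered libraries deviated from their group means with correlations of -0.0176 (WT and KO), 0.0686 (WT and EE_KO) and 0.0767 (KO and EE_KO), so they share a number only and were not paired.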

Other observations

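Several steroid enzymes of the adrenal cortex stayed below the filter of a mean of 1 FPKM and were not tested, so their values are given as they stand. Cyp21a1, the 21-hydroxylase, stood at 0.234 and 0.278 FPKM in WT and 2.70 and 1.72 in KO. Both KO libraries lay above the other 4, as for the 10 Leydig genes. Cyp11b1 and Cyp11b2, the last enzymes of glucocorticoid and aldosterone synthesis, went the other way. Cyp11b1 stood at 0.903 and 1.38 FPKM in WT, 0.0528 and 0.182 in KO and 1.06 and 0.950 in EE_KO. Cyp11b2 stood at 0.967 and 0.976 FPKM in WT, 0.103 and 0.106 in KO and 0.841 and 0.535 in EE_KO. Of the factors found in progenitors of Leydig cells, Nr2f2 (COUP-TFII) stood at 0.273 and 0.391 FPKM in WT and 1.73 and 1.07 in KO, and Lhx9 at 0.181 and 0.153 in WT and 0.164 and 0.121 in KO.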
